A study of Mus musculus with 6 samples.

Results

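B lineage genes were followed in mRNA libraries of CD4-CD8- double negative (DN) thymocytes, in which T cell development begins before either co-receptor appears. The list held 34 symbols chosen by name, of which 33 had a row among the 41457 genes of the tables. *Faim3* had no row of its own, being an older symbol of *Fcmr*, which was listed. The list covered the B cell receptor complex, the precursor stage, transcription factors, proximal signalling, naive stage surface genes and plasma stage genes. Of the 33 genes, 29 passed the filter on low counts and entered the test, while *Igkc*, *Vpreb1*, *Igll1* and *Jchain* were given as reads only. There were 3 BirA libraries, labelled WT for genotype, from control mice that express the biotin ligase BirA. The 3 Nc1Bio libraries, labelled NFATc1 overexpression, came from mice that express BirA as well and hold an extra, biotin-tagged copy of the murine *Nfatc1* gene on a BAC transgene (a bacterial artificial chromosome) spanning its locus. All mice were on the C57/B6 background, young, and matched for sex and age, and the labels name no treatment. DN cells were selected with magnetic beads against CD4 and CD8, a step that is not aimed at B cells, NK cells or most myeloid cells. Whether each library stands for an animal of its own is not stated in the labels, and the p-values therefore rest on a spread among libraries that may be technical.

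B cells arise in the bone marrow. The factors EBF1 and PAX5 commit a precursor to the lineage, and the heavy chain is first displayed with a surrogate light chain (VPREB1 and IGLL1) before κ or λ takes its place. A naive B cell carries IgM and IgD together with the signalling chains CD79A and CD79B, and bears surface proteins such as CD20, CD22, CD23 and the BAFF receptor. A plasma cell silences most of these genes and expands its secretory machinery under XBP1. A small B cell population is a normal part of the mouse thymus. Early T cell precursors can also transcribe the unrearranged heavy chain locus, and several genes on the list (*Syk*, *Btk*, *Xbp1*, *Ralgps2*) are used well outside the B lineage.

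The libraries held between 11845952 and 15393763 unique gene reads, and values are given as CPM, the unique gene reads in 1000000 reads of a library whose size was scaled by the trimmed mean of M values (TMM). *Nfatc1* itself lay between 551 and 597 CPM in the Nc1Bio libraries and between 96.9 and 152 CPM in the BirA libraries, and it was the 1 gene of 12224 that passed the edgeR test. A pair of libraries has to be kept in mind for all that follows. BirA replicate 1 had the highest level of the 6 libraries in 26 of the 29 tested B lineage genes, against 21.3% of all tested genes. Nc1Bio replicate 2 had the lowest level in 15 of the 29, against 13.6% of all tested genes, and it differed from the other 5 libraries in its immunoglobulin segments, as described next. DN thymocyte markers were present in every library: *Cd3e*, a signalling chain of the T cell receptor, lay between 218 and 276 CPM.

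The variable (V) segments were examined first, beside the constant genes they accompany in a receptor transcript. In 5 of the 6 libraries the reads fell almost wholly on 1 heavy chain and 1 κ segment. *Ighv3-8* (chr12:114322327-114322801, minus strand, GRCm38) held 802, 666 and 733 unique reads in BirA replicates 1 to 3, and 402, 0 and 491 in Nc1Bio replicates 1 to 3. *Igkv5-43* (chr6:69823355-69823943, minus strand, GRCm38) held 1645, 755 and 639 unique reads in BirA and 328, 1 and 359 in Nc1Bio. Nc1Bio replicate 2 thus had 0 and 1 reads where each of the other libraries had 328 or more.

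In shares, *Ighv3-8* took 84.5% to 89.5% of the heavy chain V reads in these 5 libraries. In Nc1Bio replicate 2 it took 0 of 47 reads (95% Wilson interval 0% to 7.56%). *Igkv5-43* took 99.4% to 100% of the κ V reads in the 5 libraries and 1.19% of 84 reads in Nc1Bio replicate 2 (95% Wilson interval 0.21% to 6.44%). Such intervals cover counting error only. Of the remaining heavy chain reads in the 5 libraries most lay on *Ighv3-3* (32 to 86 reads) and *Ighv3-6* (11 to 28 reads), relatives of *Ighv3-8*. Leaving these 3 segments out, Nc1Bio replicate 2 had 46 reads spread over 25 heavy chain segments, and the other libraries 0 to 20 reads over 0 to 7. For κ, Nc1Bio replicate 2 had 83 reads over 32 segments other than *Igkv5-43*, with no segment above 11 reads, and the other libraries 0 to 4 reads over 0 to 3. Neither the labels nor the methods name an immunoglobulin transgene or a rearranged allele, and the origin of this difference was not tested. Whether Nc1Bio replicate 2 had the same genotype as the rest of its group at the immunoglobulin loci is not known, so its heavy and κ chain values may not be comparable with theirs.

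**Figure D1:**
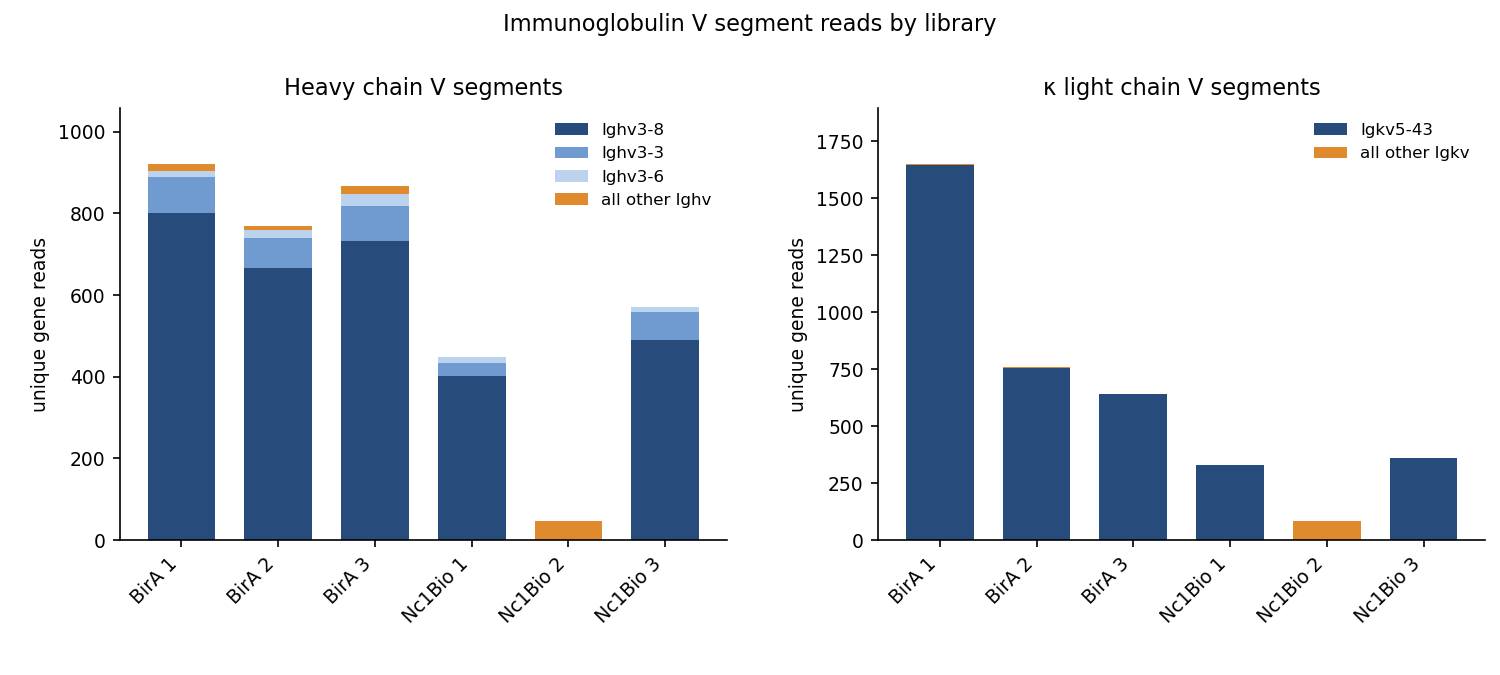
Unique gene reads (vertical axis) of heavy chain V segments (left) and κ V segments (right) in each of the 6 libraries (horizontal axis), stacked by segment. *Ighv3-8* with its relatives and *Igkv5-43* fill the bars of 5 libraries, whereas Nc1Bio replicate 2 has 47 heavy chain and 84 κ reads, nearly all on other segments.

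The dominant pair is shown here as reference coding sequence, because the assignment of reads to a segment rests on the bases at which it differs from its nearest copies. The sequences were read from GENCODE M1 transcripts (NCBIM37) matched by symbol, not from the sequenced cells. For *Igkv5-43* the first 180 bases of the coding sequence are given, with capitals at the 5 bases that differ from *Igkv5-45* (342 of 347 bases identical). For *Ighv3-8* bases 55 to 347 are given, with capitals at the 44 of 293 aligned bases that differ from *Ighv3-3*.
Igkv5-43: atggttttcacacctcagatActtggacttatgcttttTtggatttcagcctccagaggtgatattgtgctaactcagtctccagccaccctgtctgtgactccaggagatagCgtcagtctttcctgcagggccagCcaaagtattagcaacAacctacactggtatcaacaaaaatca
Ighv3-8: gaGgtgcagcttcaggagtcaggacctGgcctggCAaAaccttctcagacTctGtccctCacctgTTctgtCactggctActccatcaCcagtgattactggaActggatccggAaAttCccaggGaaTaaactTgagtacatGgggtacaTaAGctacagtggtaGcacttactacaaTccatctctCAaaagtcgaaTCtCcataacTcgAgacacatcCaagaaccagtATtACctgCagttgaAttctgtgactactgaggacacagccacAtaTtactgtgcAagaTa
With so few differing bases, reads that match both κ copies equally cannot be placed: *Igkv5-45* held 1369, 577 and 486 total reads in BirA and 254, 1 and 323 in Nc1Bio, but 0 unique reads in every library. *Ighv3-8* and *Ighv3-3* differ more, at 85.0% identity, and reads on *Ighv3-3* are still uncertain.

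None of the 5 segments that could be tested passed the edgeR test. *Ighv3-8* had a log2 fold change of -1.09 (SE 1.04, adjusted p = 0.709) over all libraries and -0.50 (SE 0.17, adjusted p = 0.590) without Nc1Bio replicate 2. *Igkv5-43* had -1.94 (SE 1.02, adjusted p = 0.488), and -1.35 (SE 0.43, adjusted p = 0.569) without that library. *Ighv3-6* had -1.08 and *Ighv3-3* -1.10, or -0.55 and -0.51 without that library. Of the 115 heavy chain V rows 37 had any unique read, and of the 100 κ V rows 38. The λ V segments held 0 to 14 unique reads a library.

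The constant gene *Ighm* (ENSMUSG00000076617, chr12:113418558-113422730, minus strand, GRCm38), which encodes the μ heavy chain of IgM, was by far the most abundant of the genes in reads. It was measured at 1686, 1516 and 1682 CPM in BirA replicates 1 to 3 and at 1479, 236 and 1332 CPM in Nc1Bio replicates 1 to 3. Nc1Bio replicate 2 again stood apart, while Nc1Bio replicates 1 and 3 lay just below the BirA range. The log2 fold change of *Ighm* was -0.68 (SE 0.55, adjusted p = 0.653), and -0.21 (SE 0.12, adjusted p = 0.668) without Nc1Bio replicate 2. The table gives *Ighm* and *Ighd* no exon length and counts all their reads as intronic, so their levels could not be set per length and spliced and unspliced transcripts were not told apart.

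*Ighd*, the δ heavy chain gene coexpressed by naive B cells through splicing of the same transcript, was far lower. Its levels were 67.7, 14.5 and 11 CPM in BirA and 13.4, 4.93 and 5.09 CPM in Nc1Bio. BirA replicate 1 was high and Nc1Bio replicate 1 lay within the BirA range, so the groups overlapped. The log2 fold change of -1.99 (SE 0.74, adjusted p = 0.373) went to -0.71 without BirA replicate 1. *Ighm* held 24.9 reads for each *Ighd* read in BirA replicate 1 and 47.9 in Nc1Bio replicate 2, and between 105 and 262 in the other 4 libraries.

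*Cd79a*, whose product Igα carries the receptor's signal, was highest in BirA replicate 1 and lowest in Nc1Bio replicate 2, as *Ighm* was. Its steps between libraries differed in size from those of *Ighm*. *Cd79a* was found at 155, 45.9 and 42.2 CPM in BirA and at 30.5, 7.81 and 20.8 CPM in Nc1Bio. Every Nc1Bio library was below every BirA library, and BirA replicate 1 was more than 3 times the other BirA libraries (3.52-fold their mean). The mean was 4.12-fold higher in BirA, with a log2 fold change of -2.04 (SE 0.62, adjusted p = 0.302), or -1.16 without BirA replicate 1. Reads of *Ighm* per read of *Cd79a* ran from 10.9 in BirA replicate 1 to 64.0 in Nc1Bio replicate 3.

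*Cd79b*, the Igβ partner, varied less. It was measured at 104, 49.9 and 48.8 CPM in BirA and at 35.7, 38.9 and 29.4 CPM in Nc1Bio. These groups did not overlap, and Nc1Bio replicate 2, lowest for *Cd79a*, was the highest Nc1Bio library here. The log2 fold change was -0.96 (SE 0.29, edgeR adjusted p = 0.304), and DESeq2 called the gene lower (adjusted p = 0.0239). That call was lost without BirA replicate 1, where the edgeR log2 fold change was -0.51, and without any 1 of the Nc1Bio libraries.

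*Igkc* (chr6:70726435-70726966, plus strand, GRCm38), the κ constant gene, was listed at 0 in every library and every read column. It lies inside the annotated long noncoding RNA *Gm30211* (chr6:70719074-70740554, plus strand), whose row held 4526, 2157 and 1965 total reads in BirA and 978, 110 and 964 in Nc1Bio, of which only 6 to 161 a library were unique. *Igkv5-43* held 32.5 to 37.2 unique reads for every 100 total *Gm30211* reads in the 5 libraries that had it. Reads of the κ constant exon and of the noncoding RNA cannot be told apart in these tables, so the 0 is no measure of κ expression.

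**Figure D2:**
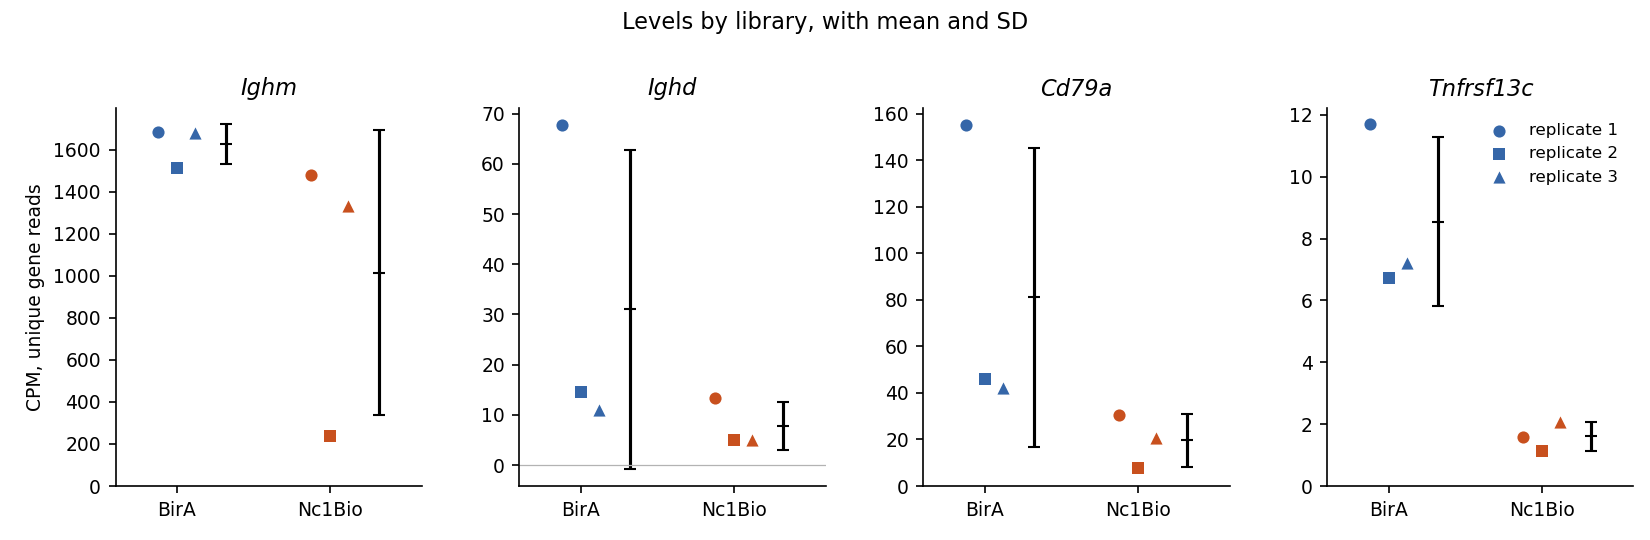
Level in CPM of unique gene reads (vertical axis, from 0) of *Ighm*, *Ighd*, *Cd79a* and *Tnfrsf13c* in each library, by group (horizontal axis). Symbols mark replicates 1 to 3, and the dash and bar beside them are the group mean and SD (n = 3). *Ighm* drops in Nc1Bio replicate 2 to 236 CPM, *Ighd* and *Cd79a* are highest in BirA replicate 1, and *Tnfrsf13c* separates the groups at 6.72 and 2.08 CPM.

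Precursor stage genes were near the limit of counting. *Vpreb1*, one chain of the surrogate light chain, had 10, 10 and 4 reads in BirA and 5, 22 and 0 in Nc1Bio, and it overlaps *Top3b*. *Igll1*, the other chain, had 0, 1 and 8 reads in BirA and 2, 5 and 10 in Nc1Bio. Neither gene was tested, and no difference was detectable at this depth. *Vpreb3*, a relative that is also made by mature B cells, had 61, 48 and 58 reads in BirA and 13, 12 and 25 in Nc1Bio. Its levels of 4.4, 3.07 and 4.03 CPM in BirA and 1.08, 0.91 and 1.93 CPM in Nc1Bio did not overlap, and here BirA replicate 1 was 1.24-fold the mean of the other BirA libraries. The log2 fold change was -1.55 (SE 0.45, adjusted p = 0.291) and stayed at -1.44 without that library.

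**Figure D3:**
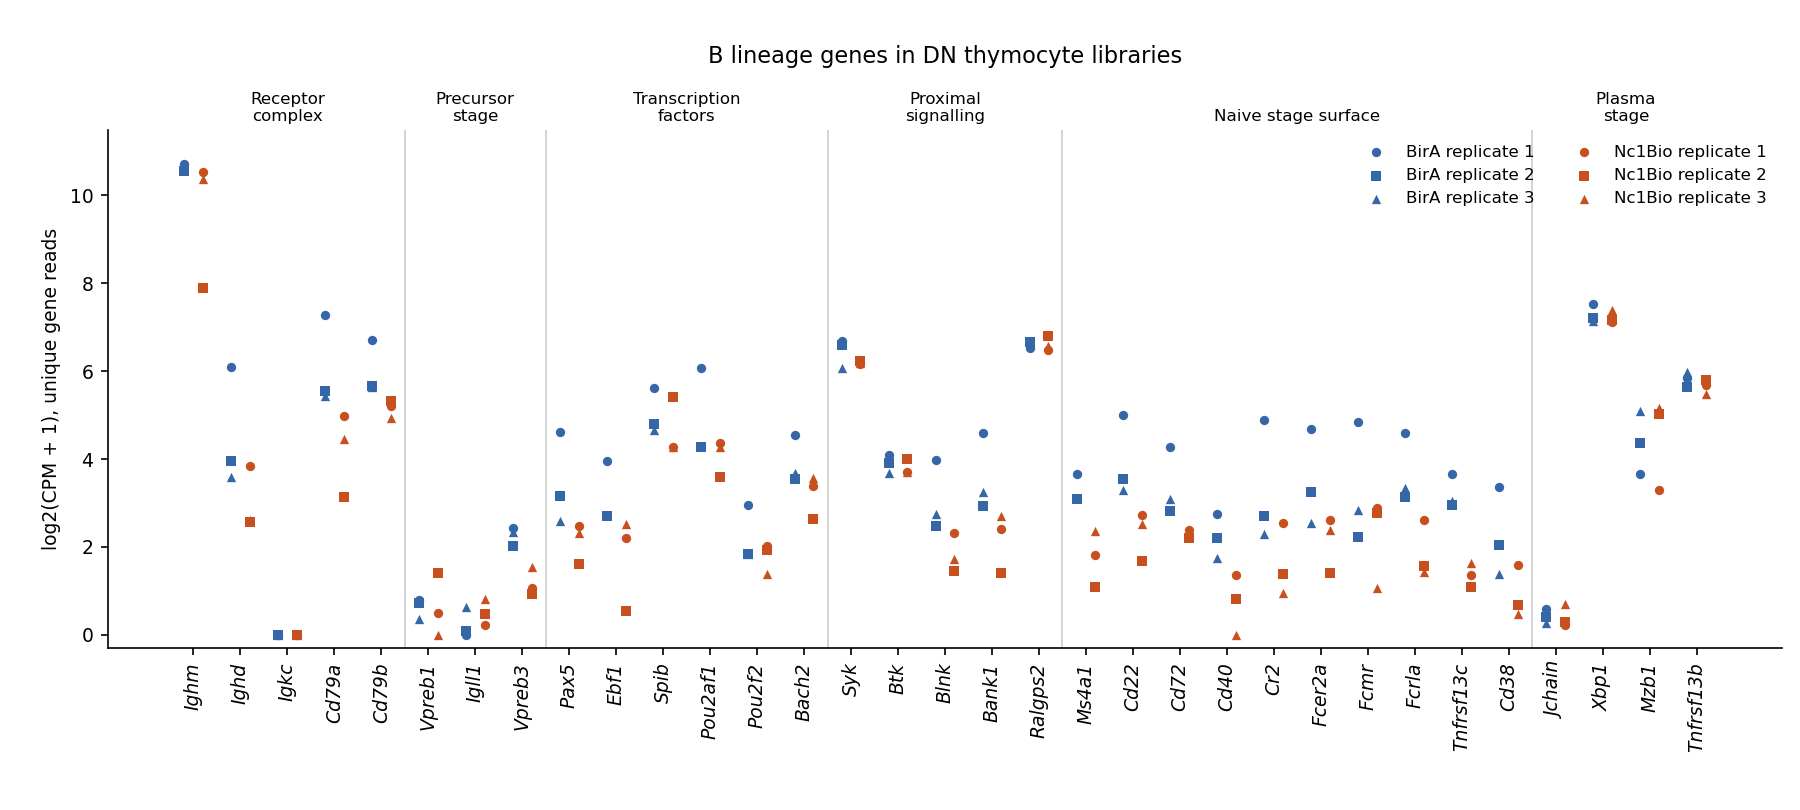
Level of each of the 33 genes (horizontal axis, by role) as log2(CPM + 1) of unique gene reads (vertical axis) in the 3 BirA (blue) and 3 Nc1Bio (orange) libraries. The blue circles of BirA replicate 1 lie on top for 26 of the 29 tested genes, and the Nc1Bio points of the 10 naive stage genes lie mostly below the BirA points, unlike those of the plasma stage genes.

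Among the transcription factors, *Pax5*, the guardian of B cell identity, was present at 23.4, 7.94 and 5.0 CPM in BirA and at 4.58, 2.05 and 4.01 CPM in Nc1Bio. The groups did not overlap, but BirA replicate 3 and Nc1Bio replicate 1 differed by less than 1 CPM. For *Pax5* the log2 fold change was -1.77 (SE 0.60, adjusted p = 0.342), or -0.87 without BirA replicate 1. *Ebf1*, which opens the B cell programme, was at 14.4, 5.51 and 5.63 CPM in BirA and at 3.58, 0.46 and 4.78 CPM in Nc1Bio, where replicate 2 held only 6 reads. Its log2 fold change of -1.53 (SE 0.75, adjusted p = 0.464) did not pass either, and it became -0.92 with BirA replicate 1 left out, or -1.02 with Nc1Bio replicate 2 left out.

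The other 4 factors overlapped between the groups. *Pou2af1*, the coactivator OCA-B, was at 66.6, 18.3 and 18.6 CPM in BirA and at 19.7, 11 and 18.5 CPM in Nc1Bio: outside BirA replicate 1 and Nc1Bio replicate 2 the 4 libraries lay within 18.3 to 19.7 CPM. Its log2 fold change of -1.07 (SE 0.52) became -0.17 without BirA replicate 1 and 0.053 without both of these libraries. *Pou2f2*, encoding the OCT2 partner of that coactivator, had -0.66 (SE 0.52), and *Bach2*, a repressor that delays plasma cell differentiation, had -0.81 (SE 0.38), and without BirA replicate 1 these were -0.037 and -0.40. *Spib*, an ETS factor that is also a marker of plasmacytoid dendritic cells, was at 48.2, 26.8 and 24.4 CPM in BirA and at 18.4, 41.9 and 18.3 CPM in Nc1Bio. Nc1Bio replicate 2, low for *Pax5* and *Ebf1*, had the second highest *Spib*. Its log2 fold change was -0.34 (SE 0.39) and turned to 0.032 without BirA replicate 1. The summed plasmacytoid dendritic markers (13 genes, *Spib* included) ranged from 198 to 302 CPM in BirA and from 207 to 267 in Nc1Bio, with *Siglech* at 7 to 14 reads in BirA and 42, 2 and 10 in Nc1Bio. Of the 9 markers tested, 7 had a negative log2 fold change, and the median of the 9 was -0.80. The part of these cells in the *Spib* reads was not tested.

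In proximal signalling, the values of *Blnk* and *Bank1* differed from those of *Syk*, *Btk* and *Ralgps2*, which are used well outside the B lineage. *Blnk*, the adaptor that links SYK to phospholipase C, was at 14.8, 4.55 and 5.77 CPM in BirA and at 4.0, 1.75 and 2.31 CPM in Nc1Bio. *Bank1*, a B cell scaffold protein, was at 23.2, 6.60 and 8.48 CPM in BirA and at 4.33, 1.67 and 5.48 CPM in Nc1Bio. Both genes kept the groups apart, with log2 fold changes of -1.64 (SE 0.54, adjusted p = 0.331) and -1.73 (SE 0.59, adjusted p = 0.343), which became -0.94 and -0.98 without BirA replicate 1. The kinase gene *Syk* was at 102, 96.2 and 66.1 CPM in BirA and within 71.0 to 74.0 CPM in Nc1Bio (log2 fold change -0.29, SE 0.16, and -0.17 without BirA replicate 1). *Btk* had 11.8 to 16.0 CPM in BirA and 12 to 15.1 CPM in Nc1Bio (log2 fold change -0.094, SE 0.20). *Ralgps2*, encoding an exchange factor for Ral GTPases, had 91.5 to 100.4 CPM in BirA and 88.4 to 111 CPM in Nc1Bio (log2 fold change 0.027, SE 0.11). The sign of *Btk* turned without BirA replicate 1, and that of *Ralgps2* without BirA replicate 1 or Nc1Bio replicate 2.

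Of the groups on the list, the naive stage surface genes had the lowest median log2 fold change. All 10 found were tested, and their log2 fold changes lay between -2.41 and -1.46 with a median of -2.10. Among these, *Cd40* and *Cd38* had only 0 to 24 reads a library in Nc1Bio and passed the filter with the help of their BirA reads. The groups were kept apart by 6 of the 10, where 9.98% of all tested genes did so in this direction. All 10 were highest in BirA replicate 1. Their summed level was 192, 63.3 and 59.4 CPM in BirA and 39.1, 20.6 and 23.1 CPM in Nc1Bio. The mean sum was 3.80-fold higher in BirA, and 2.23-fold higher without BirA replicate 1. Fewer B cells and less RNA per B cell cannot be told apart in bulk libraries.

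*Tnfrsf13c* (ENSMUSG00000068105, chr15:82221743-82224369, minus strand), encoding the BAFF receptor that mature B cells need to survive, had the lowest p-value of the list. It was measured at 11.7, 6.72 and 7.23 CPM in BirA and at 1.58, 1.14 and 2.08 CPM in Nc1Bio, from 104 to 162 and 15 to 27 reads. The lowest BirA library was more than 3 times the highest Nc1Bio library. Over all 6 libraries its log2 fold change was -2.41 (SE 0.39, edgeR adjusted p = 0.109), and DESeq2 called it lower (adjusted p = 4.87e-05). With BirA replicate 1 left out it was -2.12, with Nc1Bio replicate 2 left out -2.21, and DESeq2 called it lower without any 1 of the 6 libraries.

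*Fcrla*, an Fc receptor-like protein kept inside B cells, followed with 23.2, 7.81 and 9.17 CPM in BirA and 5.08, 1.97 and 1.70 CPM in Nc1Bio (log2 fold change -2.20, SE 0.58, edgeR adjusted p = 0.252). *Ms4a1*, encoding CD20, had 11.6, 7.56 and 7.71 CPM in BirA and 2.50, 1.14 and 4.16 CPM in Nc1Bio (log2 fold change -1.78, SE 0.48, edgeR adjusted p = 0.263). For *Ms4a1* these are only 12.1% to 24.8% of its total reads, and *4930526L06Rik* overlaps it. With total gene reads its log2 fold change was -1.99. *Cd22*, an inhibitory receptor of B cells, had 31.0, 10.7 and 8.89 CPM in BirA and 5.66, 2.20 and 4.78 CPM in Nc1Bio (log2 fold change -2.00, SE 0.56, edgeR adjusted p = 0.268). In all of these genes each Nc1Bio library was below each BirA library. DESeq2 called all of them lower, with adjusted p-values of 0.00316, 0.0172 and 0.00586. DESeq2 called none of these genes without BirA replicate 1 or without Nc1Bio replicate 2, where their edgeR log2 fold changes were -1.54 and -1.98 for *Fcrla*, -1.55 and -1.42 for *Ms4a1* and -1.22 and -1.69 for *Cd22*. *Ms4a1* was also not called without BirA replicate 2 or Nc1Bio replicate 1, nor *Fcrla* without Nc1Bio replicate 3.

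*Cr2*, encoding the complement receptor CD21, was at 28.6, 5.51 and 3.89 CPM in BirA and at 4.83, 1.59 and 0.93 CPM in Nc1Bio. The groups overlapped, and BirA replicate 1 was 6.08-fold the mean of the other BirA libraries, the largest such ratio among the tested B lineage genes. DESeq2 called it lower (adjusted p = 0.0412), a call kept without BirA replicate 3 or Nc1Bio replicate 1 and lost without any other library, while its edgeR log2 fold change of -2.37 (SE 0.89, adjusted p = 0.380) went to -0.94 without that library. *Fcmr*, the IgM Fc receptor, shared this pattern at 27.6, 3.71 and 6.18 CPM in BirA and 6.41, 5.84 and 1.08 CPM in Nc1Bio. Its log2 fold change of -1.49 (SE 0.85, adjusted p = 0.526) went to -0.15 without BirA replicate 1. *Fcer2a*, encoding CD23, had 24.9, 8.58 and 4.79 CPM in BirA and 5.16, 1.67 and 4.24 CPM in Nc1Bio (log2 fold change -1.79, SE 0.66, and -0.86 without BirA replicate 1).

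*Cd72*, a coreceptor that dampens B cell receptor signals, *Cd40*, the receptor for T cell help, and *Cd38*, an ectoenzyme found on many leukocytes, completed the group. *Cd72* had 18.3, 6.02 and 7.57 CPM in BirA and 3.64 to 4.25 CPM in Nc1Bio (log2 fold change -1.46, SE 0.44, and -0.81 without BirA replicate 1), and it overlaps *Tesk1*; in Nc1Bio replicate 3, 35 of its 48 reads were intronic, against 1 to 7 in each other library. *Cd40* had 79, 56 and 34 reads in BirA and 19, 10 and 0 in Nc1Bio (log2 fold change -2.31, SE 0.97). *Cd38* had 128, 49 and 23 reads in BirA and 24, 8 and 5 in Nc1Bio (log2 fold change -2.22, SE 0.84, and -1.25 without BirA replicate 1). *Cd40* and *Cd72* kept the groups apart, and *Cd38* did not. No naive stage gene passed the edgeR test at an adjusted p of 0.05.

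The 3 tested plasma stage genes of the list showed no step of that size between the groups. Of the 7 tested plasma cell genes outside the list, given below, 6 had a negative log2 fold change, with a median of -0.58. *Xbp1*, the factor of the unfolded protein response that plasma cells depend on, was at 185, 148 and 140 CPM in BirA and at 139, 143 and 166 CPM in Nc1Bio (log2 fold change -0.078, SE 0.13). *Tnfrsf13b*, encoding the BAFF and APRIL receptor TACI, was at 48.9 to 62.7 CPM in BirA and 43.5 to 55.1 CPM in Nc1Bio (log2 fold change -0.17, SE 0.13). *Mzb1*, an endoplasmic reticulum chaperone of marginal zone B cells and plasma cells, was at 11.7, 19.5 and 33.1 CPM in BirA and at 8.83, 31.4 and 34.9 CPM in Nc1Bio. It varied more within each group than between them (log2 fold change 0.23, SE 0.53) and was lowest in replicate 1 of each. The sign of *Xbp1* turned without BirA replicate 1, and that of *Mzb1* without BirA replicate 1 or Nc1Bio replicate 3. *Jchain*, the joining chain of secreted IgM and IgA, had 7, 5 and 3 reads in BirA and 2, 3 and 8 in Nc1Bio, below what can be tested. The summed level was 217 to 253 CPM in BirA and 198 to 245 CPM in Nc1Bio, most of it from *Xbp1*.

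Counted over the list, 0 of the 29 tested genes passed the edgeR test in either direction, where 0.0% of all genes were called lower. Before adjustment, 16 of the 29 had an edgeR p under 0.05 with lower values in Nc1Bio and 0 with higher values, where 7.66% of all tested genes were lower. The 16 became 8 without BirA replicate 1, 10 without Nc1Bio replicate 2 and 5 without both. In these fits 5.07%, 5.21% and 3.92% of all tested genes were lower at that p. DESeq2 called 6 lower (*Tnfrsf13c*, *Fcrla*, *Cd22*, *Ms4a1*, *Cd79b* and *Cr2*), against 2.23% of all tested genes, and limma-voom called 0. Without a low-count filter edgeR called 4 of 32 lower (*Fcrla*, *Cd79a*, *Cd22* and *Tnfrsf13c*), against 0.697% of all genes. The groups did not overlap, with Nc1Bio below BirA, for 14 of the 29, against 9.98% of all tested genes. The median log2 fold change of the 29 was -1.53, beside -0.0026 over all tested genes. It was -0.81 without BirA replicate 1, and -0.51 without BirA replicate 1 and Nc1Bio replicate 2 together. Without BirA replicate 1, DESeq2 called 1 of the genes lower, *Tnfrsf13c*, and without Nc1Bio replicate 2 it called the same 1.

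**Figure D4:**
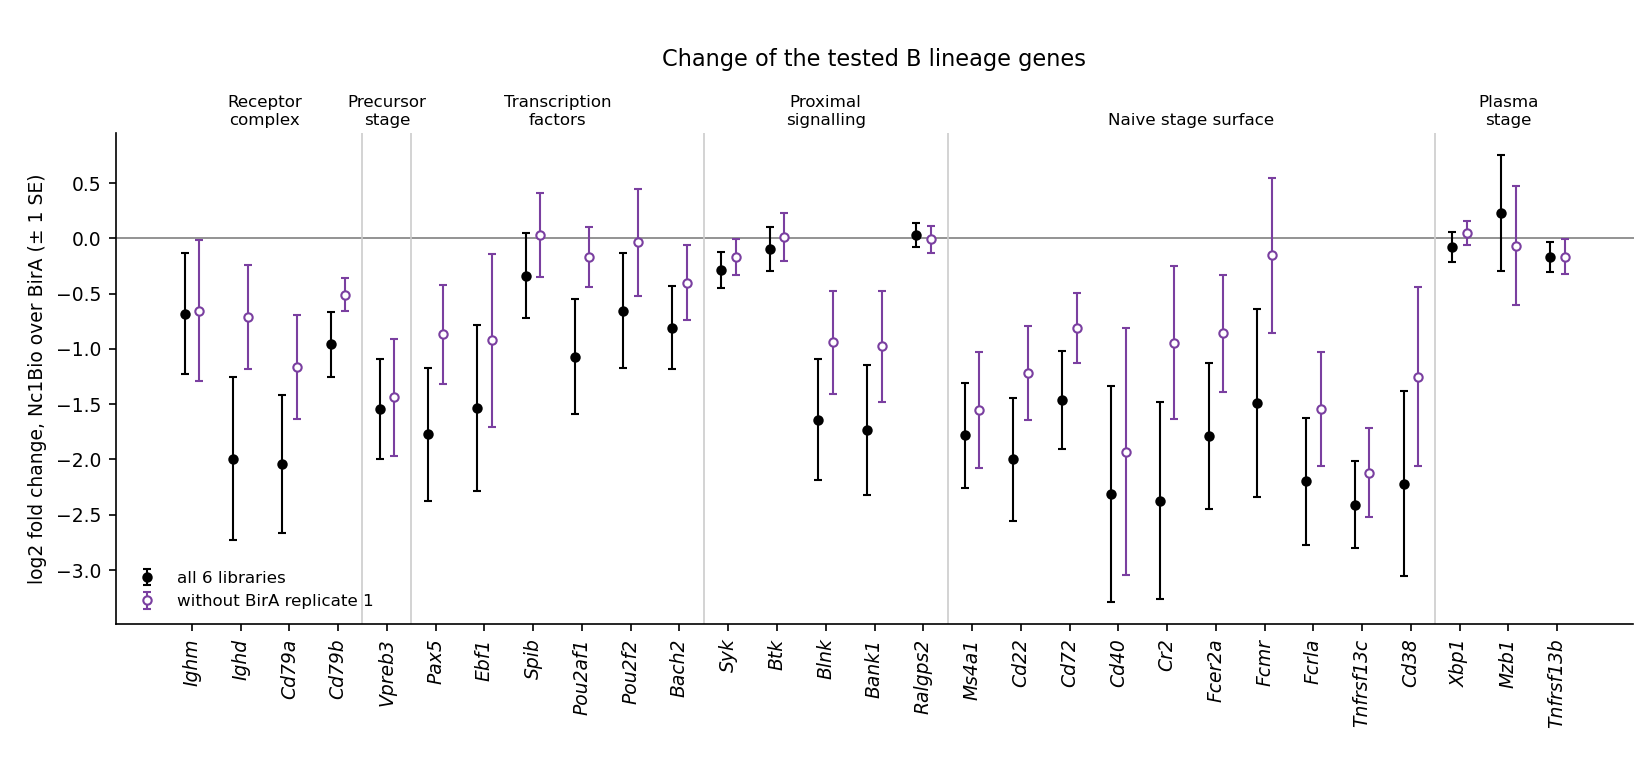
Log2 fold change of Nc1Bio over BirA with ± 1 SE from edgeR (vertical axis) for the 29 tested genes by role (horizontal axis), over all 6 libraries (black) and without BirA replicate 1 (open purple). Naive stage genes lie between -2.41 and -1.46 in black and plasma stage genes between -0.17 and 0.23, and most open symbols lie nearer to 0.

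Set per exon length in BirA, *Cd79a* (55.4 unique exon reads per kilobase in a CPM-scaled library), *Xbp1* (48.4) and *Cd79b* (47.1) had the highest levels of the genes with an exon length. *Mzb1* (22.1), *Tnfrsf13b* (19.5), *Pou2af1* (13.5) and *Spib* (11.2) followed. The naive stage genes ranged on this scale from 1.12 for *Cd40* to 7.63 for *Fcrla*. The order is not resolved where it rests on BirA replicate 1, as for *Cd79a* (42.2 to 155 CPM in BirA) and *Pou2af1* (18.3 to 66.6 CPM).

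Promoters were searched for letters tied to 2 B lineage factor families, because many of these genes lay lower together. RefSeq promoter sequences (GRCm38.p6, 250 bases before to 50 after each start) were at hand for 26 of the 33 genes, as 31 promoters. The octamer ATGCAAAT, read by OCT factors with OCA-B, was found on either strand in 2 of the 31, those of *Vpreb3* and *Blnk*, and in 1.74% of all 32851 promoters. The letters TCCCNNGGG, part of the site read by EBF factors, were found in 1 of the 31, that of *Cd22*, and in 6.56% of all promoters. The windows are given 5′ to 3′ along the gene, with the matched letters in capitals.
Vpreb3: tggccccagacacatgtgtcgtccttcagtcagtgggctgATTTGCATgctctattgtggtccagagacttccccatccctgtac
Blnk: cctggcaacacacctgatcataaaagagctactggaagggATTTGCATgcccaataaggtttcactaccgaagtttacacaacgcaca
Cd22: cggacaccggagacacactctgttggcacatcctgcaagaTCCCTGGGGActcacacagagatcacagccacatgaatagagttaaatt
These windows lie at chr10:75948215-75948299 (plus strand), chr19:40994304-40994391 (minus strand) and chr7:30879029-30879117 (minus strand). In *Vpreb3* and *Blnk* the octamer stands on the opposite strand, starting 45 and 130 bases before the start site. In *Cd22* matches on both strands overlap, so that 1 stretch of 10 bases is capitalised. A match describes the letters in the window and is neither a bound site nor a cause of the values above.

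Other genes of the lineage, from lists written by textbook role, were read beside the members. Of 36 tested other B lineage genes, 30 had a negative log2 fold change (6163 of 12224 over all genes), 0 passed the edgeR test and DESeq2 called 9 lower (2.23% over all genes). Before adjustment 12 of the 36 were lower and 1 higher at p under 0.05, where 7.66% of all genes were lower. The 4 of lowest p were *Foxo1* (log2 fold change -0.96, adjusted p = 0.106), *Blk* (-1.20, adjusted p = 0.106), *Fcrl1* (-2.79, adjusted p = 0.206, and -1.80 without BirA replicate 1) and *Cd69* (-1.92, adjusted p = 0.208). *Foxo1*, *Blk* and *Cd69* are also used by T cell precursors. *Blk* was at 93.8, 114 and 132 CPM in BirA, lowest in the library where the naive stage genes were highest. The λ constant gene *Iglc2* had 91, 39 and 32 reads in BirA and 23, 26 and 16 in Nc1Bio.

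Of the 10 germinal centre genes, 6 had enough reads for the test and the others few. *Rgs13*, a regulator of G protein signalling in germinal centre B cells, had 3 reads in all 6 libraries together, and *Nuggc* had 4. The 6 switched constant genes together held 0 to 22 reads a library, and *Ighg1* and *Ighg2c* had 0 in all of them. Of the 6 tested genes 0 passed the edgeR test, and DESeq2 called 0. *Basp1* (log2 fold change -0.76) was lower at an unadjusted p of 0.0102, and *Mef2b* (0.35), *Bcl6* (-0.64) and *Mybl1* (0.24) had the next lowest p-values. Of 7 tested other plasma cell genes 6 had a negative log2 fold change, with a median of -0.58. None passed the edgeR test, and DESeq2 called 0. Before adjustment 2 of the 7 were lower and 0 higher at an edgeR p under 0.05, where 7.66% of all genes were lower. *Sdc1*, encoding CD138, was at 26, 4.93 and 5.49 CPM in BirA and at 3.50, 1.67 and 0.077 CPM in Nc1Bio (log2 fold change -2.80, SE 1.03, adjusted p = 0.370, and -1.58 without BirA replicate 1). *Derl3* (-1.46), *Creld2* (-0.32) and *Irf4* (-0.87) had the next lowest p-values.

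Lists of other cell types moved with some of these values. MHC class II genes, which B cells share with dendritic cells, macrophages and epithelium, summed to 2753, 578 and 635 CPM in BirA and to 641, 195 and 368 CPM in Nc1Bio. All 10 were negative in log2 fold change, with *Ciita* (-3.12), *H2-DMb2* (-1.78), *H2-Ob* (-1.33) and *Cd74* (-1.99) of lowest p (-2.44, -0.82, -0.55 and -0.78 without BirA replicate 1), 0 passed the edgeR test, and DESeq2 called *Ciita* lower. The NK and innate lymphoid list (10 genes, 8 tested) summed to 769 to 1012 CPM in BirA and 378 to 563 CPM in Nc1Bio, with 8 of 8 negative. Its median log2 fold change was -2.13, beside -2.10 for the naive stage genes. Nc1Bio lay wholly below BirA for 3 of the 8 (9.98% of all tested genes), and DESeq2 called 2 lower (2.23% of all). The list of double-positive and single-positive thymocytes (8 genes) summed to 169 to 236 CPM in BirA and 75.0 to 120 CPM in Nc1Bio, with 8 of 8 negative. Its median was -0.93, with 4 of the 8 wholly below BirA and 4 called lower by DESeq2. Both lists were, like the naive stage genes, highest in BirA replicate 1.

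Macrophage genes (10, with 9 of 9 tested negative) summed to 213, 164 and 60.0 CPM in BirA and to 84.5, 52.6 and 92.2 CPM in Nc1Bio, so that they too were highest in BirA replicate 1 and lowest in Nc1Bio replicate 2. Conventional dendritic genes (9, with 4 of 4 tested negative) summed to 115, 146 and 58.2 CPM in BirA and to 66.0, 39.6 and 77.8 CPM in Nc1Bio. In BirA and Nc1Bio in turn, granulocyte genes (10) summed to 482 to 9634 and 403 to 5814 CPM, erythroid genes (7 of 8 found) to 20080 to 66150 and 17670 to 97660, and thymic epithelial genes (8) to 37.5 to 53.9 and 41.8 to 62.9. Of the tested genes, 8 of 10 granulocyte, 0 of 7 erythroid and 0 of 3 thymic epithelial genes were negative in log2 fold change. The 17 DN thymocyte markers summed to 7935 to 9135 CPM in BirA and 8976 to 10550 CPM in Nc1Bio. Only 3 of the 17 were negative, and their median log2 fold change was 0.25. No gene of these lists was at 0 in all libraries, while *Foxn1*, which defines thymic epithelium, had 2 reads in 1 library and 0 in the other 5. The part of any of these cells in the values of the B lineage genes was not tested.

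**Figure D5:**
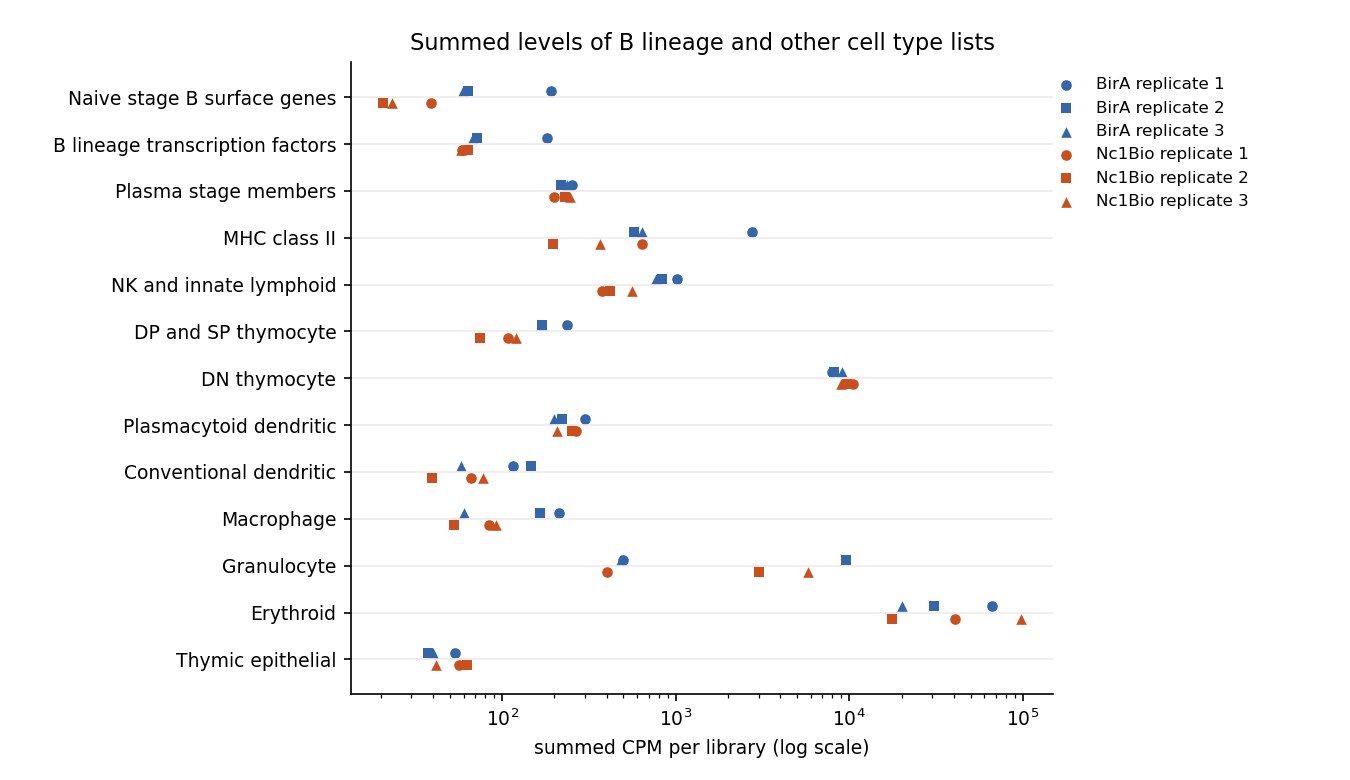
Summed CPM per library (horizontal axis, log scale) of 3 groups of the B lineage genes and of 10 other lists (vertical axis), in BirA (blue) and Nc1Bio (orange). The naive stage genes are at 59.4 to 192 CPM in BirA and 20.6 to 39.1 CPM in Nc1Bio, and the plasma stage genes overlap.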

How the data were processed

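Poly(A) libraries were sequenced from DN thymocytes of 3 BirA and 3 Nc1Bio samples, grouped as labelled. In the study's methods, reads were trimmed with cutadapt, aligned by STAR to GRCm38, counted by featureCounts and compared by DESeq2, but the tables have another layout. The program that wrote them and its strand setting are not given in the sources used here. As deposited, each gene has whole-number counts of reads in the gene, its exons and its introns, both unique and total. TPM values were not used. Exon lengths (other values in the deposited tables) served for levels per kilobase.

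Unique gene reads of genes passing filterByExpr were TMM-scaled and tested in edgeR 4.0.16 (quasi-likelihood, R 4.3.3, genotype as the single term), with Benjamini-Hochberg adjustment over 12224 genes and calls at 0.05. DESeq2 1.42.0 and limma 3.58.1 (voom) were alternatives, as were RLE scaling, other filters and count columns, the replicate number as a block, the threshold of the study and leaving out each library. DESeq2 gave no adjusted p for 482 genes and for 0 members. The steps were tested on simulated data. No pair of libraries within a group agreed within sampling noise (the lowest chi-square was 25.4 per degree of freedom). The members, lists, tests and the rule for named genes (all members, *Nfatc1*, the 4 genes of lowest p of each other list, defining markers at 0) were chosen with earlier results of these data known. *Cd3e*, *Siglech*, *Iglc2*, *Rgs13*, *Nuggc*, *Igkv5-45*, *Gm30211* and the V segment comparison were added after values had been seen. Intervals cover counting error only, since reads are not molecules.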

Additional observations from a re-analysis of the deposited data

How the results depend on the processing

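The number of B lineage genes called lower was 0 in edgeR under RLE scaling, a filter of 1 CPM in 3 libraries, the replicate block, total gene, unique exon or total exon reads, and with any library left out, and 0 in limma-voom. It was 4 without a low-count filter, 6 with DESeq2, 3 at the threshold of the study (a log2 fold change beyond 0.5 in size, at an adjusted p below 0.01), 7 with DESeq2 on total gene reads and 9 with DESeq2 on every gene with reads. DESeq2 called 1 to 11 with 1 library left out: 1 without BirA replicate 1, 5 without BirA replicate 2, 11 without BirA replicate 3, 5 without Nc1Bio replicate 1, 1 without Nc1Bio replicate 2 and 4 without Nc1Bio replicate 3. Over all genes, 0 lower and 1 higher became 145 and 11 without the filter, 273 and 55 with DESeq2, 155 and 13 at the threshold of the study, 289 and 59 with DESeq2 on total gene reads and 284 and 42 on every gene with reads. With 1 library left out, edgeR called 0 to 1 genes lower and 0 to 1 higher, and DESeq2 135 to 516 lower and 29 to 219 higher (168 and 37 without BirA replicate 1, 172 and 29 without BirA replicate 2, 516 and 219 without BirA replicate 3, 245 and 31, 135 and 31, and 284 and 55 without Nc1Bio replicates 1, 2 and 3). The replicate block called 1 gene lower and 1 higher and no B lineage gene. Samples of like number correlated in their deviations at 0.33, 0.12 and -0.099, so the numbers were not taken as pairs.

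The median log2 fold change of the tested B lineage genes ranged from -1.77 to -0.81 with 1 library left out (DESeq2 -1.78 to -0.81) and was -0.51 without BirA replicate 1 and Nc1Bio replicate 2 together. The log2 ratio of summed naive stage genes was -1.93, and -2.27 to -1.16 with 1 library left out. In both cases BirA replicate 1 gave the value nearest 0, and the cause was not tested. Of 29 tested genes 23 kept their sign under all alternatives. With 1 library left out in edgeR, *Spib* ran from -0.85 to 0.032, *Btk* from -0.21 to 0.013, *Ralgps2* from -0.073 to 0.099, *Xbp1* from -0.16 to 0.051 and *Mzb1* from -0.086 to 0.69. *Spib* turned to 0.032 (DESeq2 0.036) and *Btk* to 0.013 (DESeq2 0.018) without BirA replicate 1. *Ralgps2* turned to -0.0065 (DESeq2 -0.0017) without BirA replicate 1, -0.073 (DESeq2 -0.068) without Nc1Bio replicate 2 and -0.11 without both. *Xbp1* turned to 0.051 (DESeq2 0.056) without BirA replicate 1 and 0.083 without both. *Mzb1* turned to -0.067 (DESeq2 -0.063) without BirA replicate 1, -0.086 (DESeq2 -0.096) without Nc1Bio replicate 3 and -0.26 without both BirA replicate 1 and Nc1Bio replicate 2, which also turned *Pou2af1* to 0.053. The fit on total exon reads, the DESeq2 fits on total reads or on every gene, the DESeq2 fits with a library left out and the fit without both libraries were chosen after seeing the data. Low counts limit *Vpreb1*, *Igll1*, *Jchain*, *Cd40* and *Cd38*.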
